A study of Mus musculus with 2 samples.

Results

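The 9 genes described here are the interleukin 6 (IL-6) family ligands Il6, Osm, Lif and Il11, the receptor genes Il6ra, Il6st, Osmr and Lifr, and the feedback gene Socs3, taken by symbol from the 31053 genes of the count matrices. Their UMIs (unique molecular identifiers, 1 per captured transcript) were counted in 2 single-cell libraries of wild-type C57BL/6 mouse skin, 1 of dermis and 1 of epidermis. The mice were 10 weeks old by the labels, which differ in this from the methods of the study, and had received imiquimod (IMQ), a Toll-like receptor agonist that induces psoriasiform inflammation, on the ear for 5 days. The methods give a sort of CD45+ live cells for the dermis and of all live cells for the epidermis, the labels only the removal of dead cells. Both libraries share genotype and treatment, the number of animals behind each is not given in the sources used here, and untreated skin was not analysed here.

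Barcodes needed 200 genes or more and no more than 10% of UMIs from mitochondrial genes, which left 4747 of 5376 dermal and 4173 of 5258 epidermal barcodes, with medians of 7010 and 25918 UMIs. The kept cells of both libraries had 30 barcodes in common. Marker genes placed 3635 dermal and 3821 epidermal cells in a cell type, and the 24 groups of at least 20 cells are described, 15 of them dermal. The labelled tissues held these markers unequally: fibroblast, endothelial and Schwann markers defined dermal groups in spite of the CD45+ sort, with Ptprc, which encodes CD45, in 28.4% of fibroblasts, 75.7% of monocytes, 31.0% of basophils and 10.5% of mast cells. A dermal group gated on Langerhans markers had Cd207, the defining gene of those cells, in 26.3% of its 38 cells against 90.7% of epidermal Langerhans cells, and is called the Mucl1/Ccl17 group after its leading genes. The 82 dermal T cells gated as regulatory had Foxp3, their defining gene, in 40.2%, and Il22 and Il17f among their leading genes. These cells are called regulatory-gated below. With 1 library per tissue there was no replicate, so no test was made, and every interval below is an exact 95% interval that covers counting error alone. Levels are CPM, the usual count of a gene's UMIs scaled to the same total of UMIs in every group, and within a group more transcripts per cell and more expressing cells are separated only by the shares of cells given.

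IL-6 family cytokines act through receptors that share the chain gp130, encoded by Il6st. IL-6 binds its own receptor IL6RA, on the cell or in shed form, before it engages gp130. Oncostatin M (OSM) uses OSMR with gp130, leukaemia inhibitory factor (LIF) uses LIFR with gp130, and IL-11 uses IL11RA with gp130. Signals pass through JAK kinases to STAT3, which induces Socs3, an inhibitor that binds gp130 and limits the signal. In skin the family is known for acting on keratinocytes, fibroblasts and vessels during inflammation and repair.

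Il6 lies at chr5:30013114-30019981 (GRCm38, plus strand), and Osm at chr11:4236420-4241026 and Lif at chr11:4257557-4272514 are neighbours on the plus strand. Socs3 lies at chr11:117966079-117970047 on the minus strand. The other ligand, Il11, is at chr7:4772373-4782859 (minus strand). The receptor genes are Il6ra at chr3:89864059-89913196 (minus), Il6st at chr13:112464070-112510086 (plus), Osmr at chr15:6813577-6874969 (minus) and Lifr at chr15:7090614-7197489 (plus). The 250 bases before the RefSeq start (GRCm38.p6) are shown for Il6, the ligand with the most unequal levels between groups, and for Socs3, the feedback gene of the pathway. The Il6 window is chr5:30012864-30013113 on the plus strand, directly before the annotated gene. The Socs3 window is chr11:117969367-117969616 on the minus strand, inside the span of the gene in GENCODE M21. Capitals mark the match to the AP-1 motif in Il6 and to the STAT motif in Socs3.
Il6: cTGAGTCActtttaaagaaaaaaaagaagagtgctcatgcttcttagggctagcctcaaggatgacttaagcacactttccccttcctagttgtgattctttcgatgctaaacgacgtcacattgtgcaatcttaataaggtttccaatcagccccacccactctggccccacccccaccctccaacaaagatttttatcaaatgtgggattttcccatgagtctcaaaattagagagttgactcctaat
Socs3: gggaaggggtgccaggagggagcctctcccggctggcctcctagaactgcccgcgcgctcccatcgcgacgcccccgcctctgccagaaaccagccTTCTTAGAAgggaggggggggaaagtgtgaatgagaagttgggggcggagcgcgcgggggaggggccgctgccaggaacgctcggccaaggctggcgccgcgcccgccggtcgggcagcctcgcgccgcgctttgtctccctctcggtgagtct
Windows were found for 8 of the 9 members, not for Osm. Both strands were searched for 4 motifs, and no window held more than 1 match. The STAT letters TTCNNNGAA stood in the Socs3 window, as TTCTTAGAA from 154 to 146 bases before the start, and in no other window of the 8 members. Of all 32851 windows, 7.02% held them. The AP-1 letters TGANTCA, held by 6.75% of all windows, stood in Il6 from 249 to 243 bases before the start, in Lif from 228 to 222, and before the second Il11 start from 98 to 92. A GATA match to AGATAA, held by 9.99% of all windows, stood in Il6ra from 245 to 240 bases before the start. The CRE letters TGACGTCA, held by 1.55% of all windows, stood in none of the 8. These matches are letters in a window and carry no measurement of binding.

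Il6, Osm and Lif were all highest in basophils, granulocytes that carry the protease gene Mcpt8. The dermal basophils carried all 6 basophil markers, summed to 12026 CPM, beside monocyte markers at 2447 CPM and mast cell markers at 623 CPM with 1 of 6 at 0, whose part in the levels was not tested. In the 242 dermal basophils, Il6 had 2870 UMIs, or 2617 CPM (2523 to 2715), and 76.9% of the cells carried at least 1 UMI. The 22 epidermal basophils had 85 Il6 UMIs, or 1292 CPM (1032 to 1597). Il6 came next in dermal endothelial cells, at 179 CPM (148 to 214) from 119 UMIs in 43 cells, and in fibroblasts, at 85.1 CPM (76.3 to 94.6) from 339 UMIs in 328 cells. These 4 groups stood in this order with no overlap between each and the next, whereas the fibroblast interval overlapped that of the 95 mast cells (79.9 CPM, 10 UMIs), in which basophil markers summed to 2302 CPM and the median cell had 825 UMIs. Monocytes had 48.5 CPM, macrophages 15.7 and neutrophils 13.7. In the epidermis, basal keratinocytes had 0.488 CPM, and none of 407 gamma-delta T cells and none of 182 Langerhans cells carried an Il6 UMI.

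Within dermal basophils Il6 was uneven. The lowest cell had 0 UMIs, the median cell 3, the upper quartile was 13 and the richest cell had 198, and 46.3% of the cells had 5 or more. In fibroblasts the median and the upper quartile were 0, 5.79% of cells had 5 or more UMIs and the richest had 51. After each cell was thinned to 1000 UMIs, 52.5% of 238 basophils (46.0 to 59.0), 16.3% of 43 endothelial cells, 3.73% of 322 fibroblasts and 2.88% of 1041 monocytes kept an Il6 UMI. Basophils and endothelial cells kept their places at equal depth, while the intervals of fibroblasts and monocytes overlapped. In endothelial cells 5 cells held 58.0% of the Il6 UMIs, and in fibroblasts 39.2%.

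Osm, encoding oncostatin M, was spread over more groups. Dermal basophils had 1284 UMIs, or 1171 CPM (1108 to 1237), with 78.9% of cells positive, a median of 2 and a maximum of 43 UMIs. Epidermal basophils had 1596 CPM (1305 to 1931) from 105 UMIs. Epidermal neutrophils followed at 264 CPM, from 15 UMIs in 23 cells. Dermal neutrophils at 99.5 CPM (87.1 to 113) and dermal monocytes at 90.5 CPM (84.5 to 96.9) had overlapping intervals, and macrophages had 42.5 CPM. In keratinocytes Osm was near 0, at 0.574 CPM in basal cells.

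Lif had fewer UMIs. Dermal basophils had 170, or 155 CPM (133 to 180), in 20.7% of cells. Mast cells had 7, or 55.9 CPM (22.5 to 115), and epidermal basophils 3, or 45.6 CPM (9.40 to 133), with overlapping intervals. Monocytes had 83, or 9.04 CPM, and basal keratinocytes 102, or 1.10 CPM. Il11 was close to undetected, with 8 UMIs in dermal fibroblasts (2.01 CPM) and 23 in basal keratinocytes (0.249 CPM), and its order over groups could not be read at this depth.

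**Figure D1:**
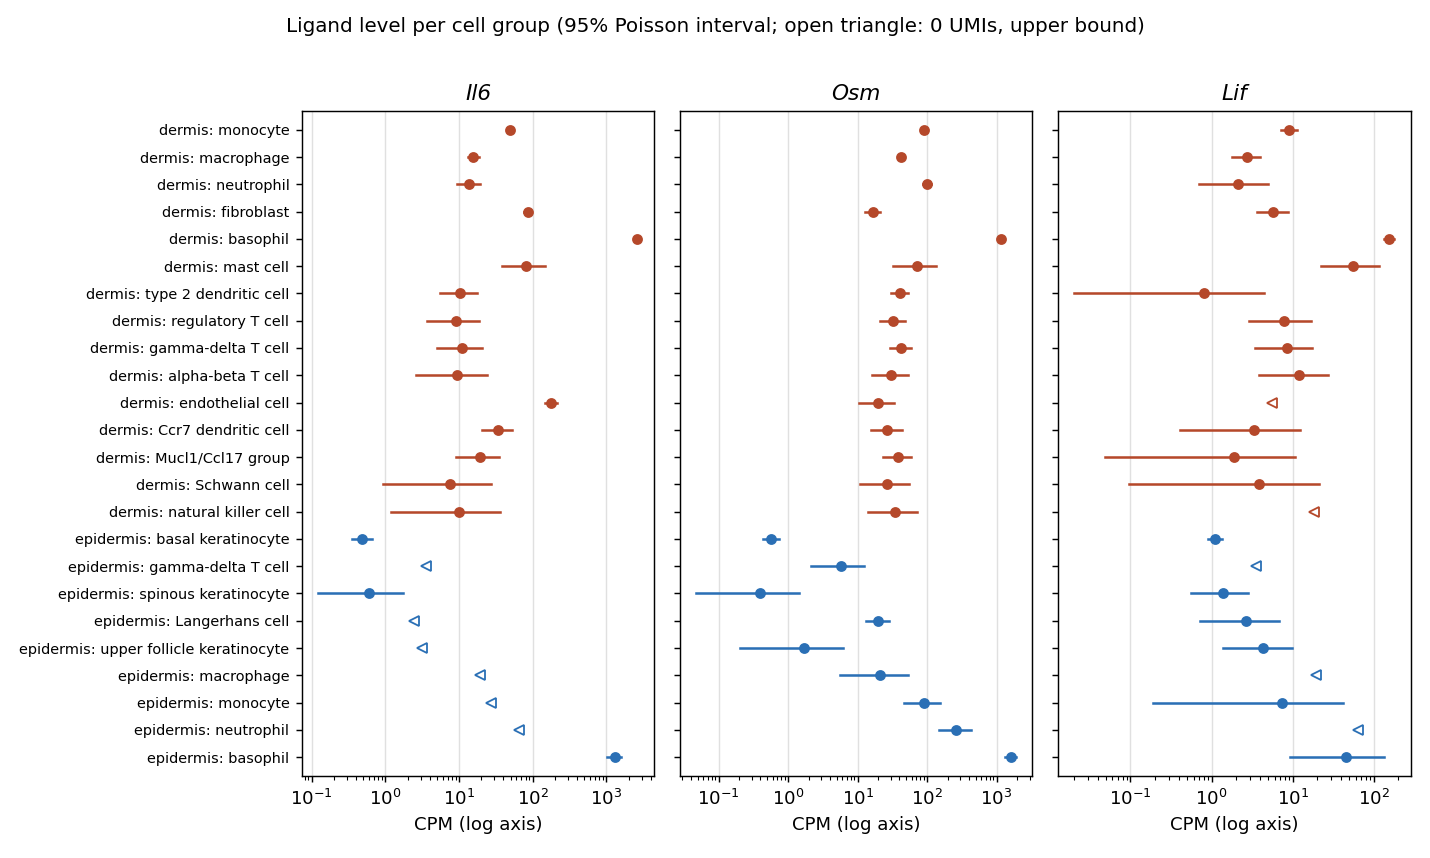
CPM of Il6, Osm and Lif (log axes) in each of the 24 cell groups, red for dermal and blue for epidermal groups, with exact 95% Poisson intervals as lines and open triangles at the upper bound where no UMI was counted. Basophils of both libraries stand farthest right for Il6 and Osm, the dermal ones at 2617 CPM of Il6 and 1171 CPM of Osm. For Lif only the dermal basophils do, at 155 CPM.

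Basophils made up 5.10% of the dermal cells kept. They held 67.0% (65.6 to 68.4) of the library's 4281 Il6 UMIs, 35.5% (33.9 to 37.1) of its Osm UMIs and 42.6% (37.7 to 47.6) of its Lif UMIs. Monocytes, 22.0% of the cells, held 10.4%, 23.0% and 20.8%. Fibroblasts, 6.91% of the cells, held 7.92% of the Il6 UMIs, and cells without a gate, 23.4% of all, held 5.65%. The ligands were also found in the same cells. Of dermal basophils, 63.2% (56.8 to 69.3) carried both Il6 and Osm, and 82.3% of the Il6-positive ones were Osm-positive. Counted singly, Il6 was in 186 and Osm in 191 of the 242 basophils, and an excess of shared cells was not tested. In monocytes 7.37% of cells carried both.

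**Figure D2:**
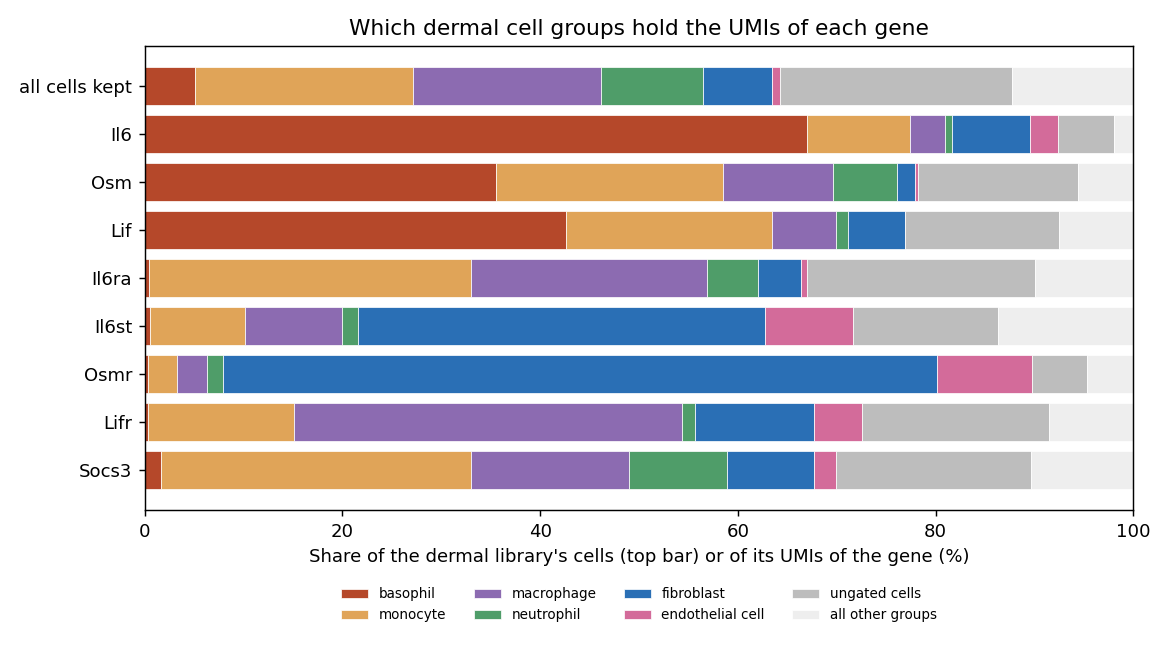
Bars show how the dermal library's cells (top bar) and its UMIs of each gene divide over cell groups, in percent. Basophils hold 67.0% of Il6 but little of any receptor gene, fibroblasts hold 72.2% of Osmr, and monocytes and macrophages hold most of Il6ra.

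Free RNA can place UMIs in cells that do not make a transcript, and Mcpt8 gauges how much basophil RNA reached other cells. Mcpt8 was at 8673 CPM in dermal basophils and at 26.9 CPM in monocytes, where 19.0% of cells carried it against 14.0% for Il6. In fibroblasts 26.8% of cells carried Mcpt8, against 21.6% for Il6 and 15.9% for Osm (median depths 10247 UMIs in fibroblasts, 4343 in basophils). Dermal basophils had 9510 UMIs of Mcpt8 against 2870 of Il6 and 1284 of Osm, so the shares of Mcpt8 and of a ligand are not on 1 scale. The counts did not keep 1 ratio over groups. Basophils had 0.302 Il6 UMIs per Mcpt8 UMI, macrophages 0.412 and neutrophils 0.421. Regulatory-gated, alpha-beta and gamma-delta T cells had 0.389, 0.5 and 0.75 (from 7, 4 and 9 Il6 UMIs). Monocytes had 1.80, fibroblasts 2.85 and endothelial cells 8.50. For Osm the ratio was 0.135 in basophils, 3.36 in monocytes and 3.07 in neutrophils, and 0.555 in fibroblasts. Natural killer cells had an Il6 ratio of 0.286, from 2 Il6 UMIs. Type 2 dendritic cells had 0.448, mast cells 0.476, the Mucl1/Ccl17 group 0.625, Schwann cells 1 (from 2 Il6 UMIs) and Ccr7 dendritic cells 1.43. The Il6 ratios of the dermal groups thus ran from 0.286 in natural killer cells to 8.50 in endothelial cells, and no cut was set between near and far from basophils. The part of free RNA in these levels was not tested.

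Against the other immune cells of the dermis (2979 cells), a comparison added after the levels were seen, basophils had 97.4-fold more Il6 (89.7 to 106), 28.6-fold more Lif (22.8 to 36) and 18.6-fold more Osm (17.3 to 20.01), as ratios of CPM. Of the 8 members with at least 20 UMIs, these 3 were at least 2-fold higher, and Il6ra (5.47 against 37.7 CPM), Lifr (1.82 against 14.4 CPM) and Il6st (4.56 against 10.3 CPM) at least 2-fold lower. Of all 11914 genes, 12% were that much higher and 30.1% lower. The interval of Il6st included no difference (0.142 to 1.04). The pool is a sum of UMIs, to which macrophages and monocytes gave the most. Macrophages held 235 and monocytes 88 of its 380 Lifr UMIs. Of 5 feedback inhibitors, Socs1, Cish and Socs2 were at least 2-fold higher, Socs1 at 68.4 against 16.3 CPM, and the median log2 ratio was 1.15 against -0.40 over all genes. Of 14 genes known as STAT3 targets 2 were higher, among them the kinase gene Pim1 at 1113 against 373 CPM, and 5 lower, with a median log2 ratio of -0.49. Of 11 JAK-STAT and shedding genes 2 were higher, among them the kinase gene Jak1 at 162 against 77.5 CPM, and 3 lower. Stat3 was at 54.7 CPM in basophils.

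Immediate early and heat shock genes, which tissue dissociation is known to induce, were also higher in dermal basophils. Of 15 such genes 9 were at least 2-fold higher in dermal basophils than in the other immune cells and none lower, with a median log2 ratio of 1.33. Jun stood at 5369 against 721 CPM and Egr1 at 416 against 73.2 CPM. The summed level of the 15 genes was 35438 CPM in dermal basophils, 20420 in natural killer cells, 15625 in monocytes and 6743 in fibroblasts, and from 1384 to 14071 in the epidermal groups. In the same dermal groups Il6 was at 2617 CPM in basophils, 9.94 CPM (2 UMIs) in natural killer cells, 48.5 CPM in monocytes and 85.1 CPM in fibroblasts. The part of dissociation in the level of Il6, Osm, Lif or Socs3 was not tested.

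**Figure D3:**
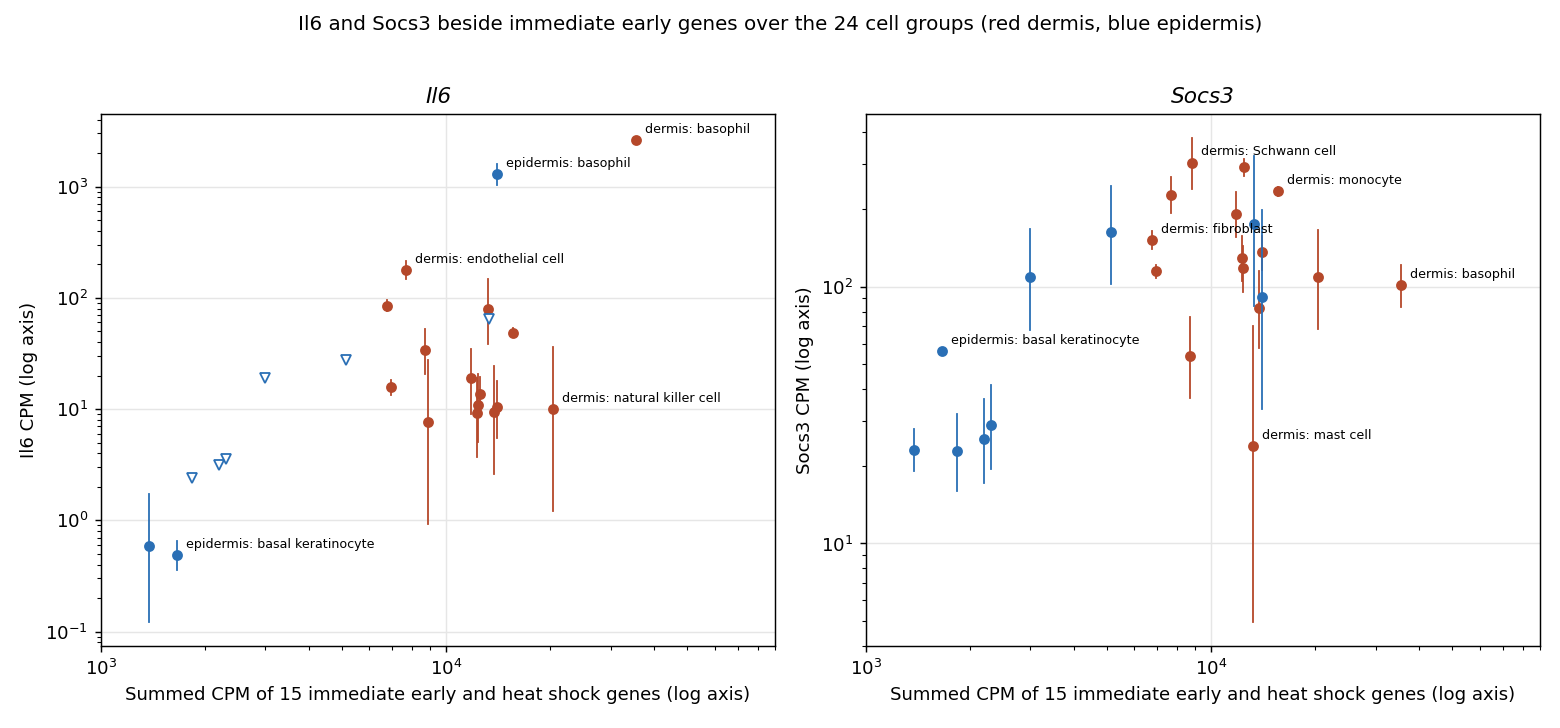
Each point is 1 of the 24 cell groups, placed by the summed CPM of 15 immediate early and heat shock genes and by the CPM of Il6 (left) or Socs3 (right), all axes log, with exact 95% Poisson intervals and open triangles at the upper bound for 0 UMIs. Dermal basophils are highest on the list and in Il6, whereas their Socs3 (101 CPM) lies below that of Schwann cells (304 CPM), which have 8843 CPM of the list.

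In the 22 epidermal basophils, compared with the dermal ones after the levels were seen, Il6 was lower, at a ratio of 0.493 (0.393 to 0.612), and Lif at 0.294 (0.0600 to 0.874, 3 UMIs). Osm was at 1.36 times the dermal level (1.11 to 1.66). Of 4 members past the minimum none was at least 2-fold higher and 2 were lower, against 16.2% higher and 18.3% lower of 4152 genes. The immediate early list had 7 of 15 genes at least 2-fold lower, Hspa1a at 1808 against 14156 CPM. Its part was not tested, and tissue and library cannot be told apart. Keratin and other basal keratinocyte markers reached 5516 CPM in epidermal and 24.6 CPM in dermal basophils.

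Basophils, highest in 3 ligands, had few UMIs of any receptor gene, which was not particular to them. Dermal gamma-delta T cells had 4.86 CPM of Il6ra and 1.22 CPM each of Il6st and Lifr. Natural killer cells had 4.97 CPM of Il6ra, and neither they nor mast cells had an Il6st UMI. Il6ra, the IL-6 binding chain, was found in immune, structural and keratinocyte groups. Dermal type 2 dendritic cells had 52.8 CPM (40.8 to 67.2), monocytes 49.6 (45.1 to 54.3), the Mucl1/Ccl17 group 39.8, macrophages 34.9, epidermal Langerhans cells 32.8 and neutrophils 31.2. The 23 epidermal neutrophils had 123 CPM from 7 UMIs, with an interval (49.5 to 254) that overlapped that of type 2 dendritic cells. Basal keratinocytes had 20.8 CPM (19.8 to 21.7) from 1916 UMIs, fibroblasts 15.1, Schwann cells 15.2, spinous keratinocytes 9.44 and basophils 5.47 from 6 UMIs. Monocytes held 32.6% and macrophages 23.8% of the dermal Il6ra UMIs, and basal keratinocytes 91.7% of the epidermal ones.

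Il6st and Osmr were highest in dermal Schwann cells, endothelial cells and fibroblasts, of which the last 2 also had Il6. Il6st, the shared gp130 chain, was at 228 CPM (174 to 293) in 36 Schwann cells, 132 (106 to 163) in endothelial cells and 102 (92.5 to 113) in fibroblasts. The intervals of endothelial cells and fibroblasts overlapped. Epidermal gamma-delta T cells followed at 32.7 CPM (22.7 to 45.7) and type 2 dendritic cells at 21.6. Monocytes and macrophages had 10.4 and 10.3 CPM, basal keratinocytes 8.01 and basophils 4.56. Osmr, the oncostatin M chain, was at 54.7 CPM (47.7 to 62.5) in fibroblasts and 43.5 (29.1 to 62.5) in endothelial cells. Schwann cells had 22.8 CPM from 6 UMIs, with an interval (8.36 to 49.6) that overlapped that of upper follicle keratinocytes. The latter had 21.3 CPM (13.8 to 31.5) and basal keratinocytes 7.37 (6.82 to 7.94). Monocytes had 0.981 CPM and basophils 1 UMI. Fibroblasts held 72.2% of the dermal Osmr UMIs and 41.1% of those of Il6st. Lifr, the LIF chain, was at 43.5 CPM in endothelial cells, 24.7 (21.7 to 28.1) in macrophages, 20.8 in type 2 dendritic cells and 18.1 in fibroblasts, and macrophages held 39.3% of its dermal UMIs.

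**Figure D4:**
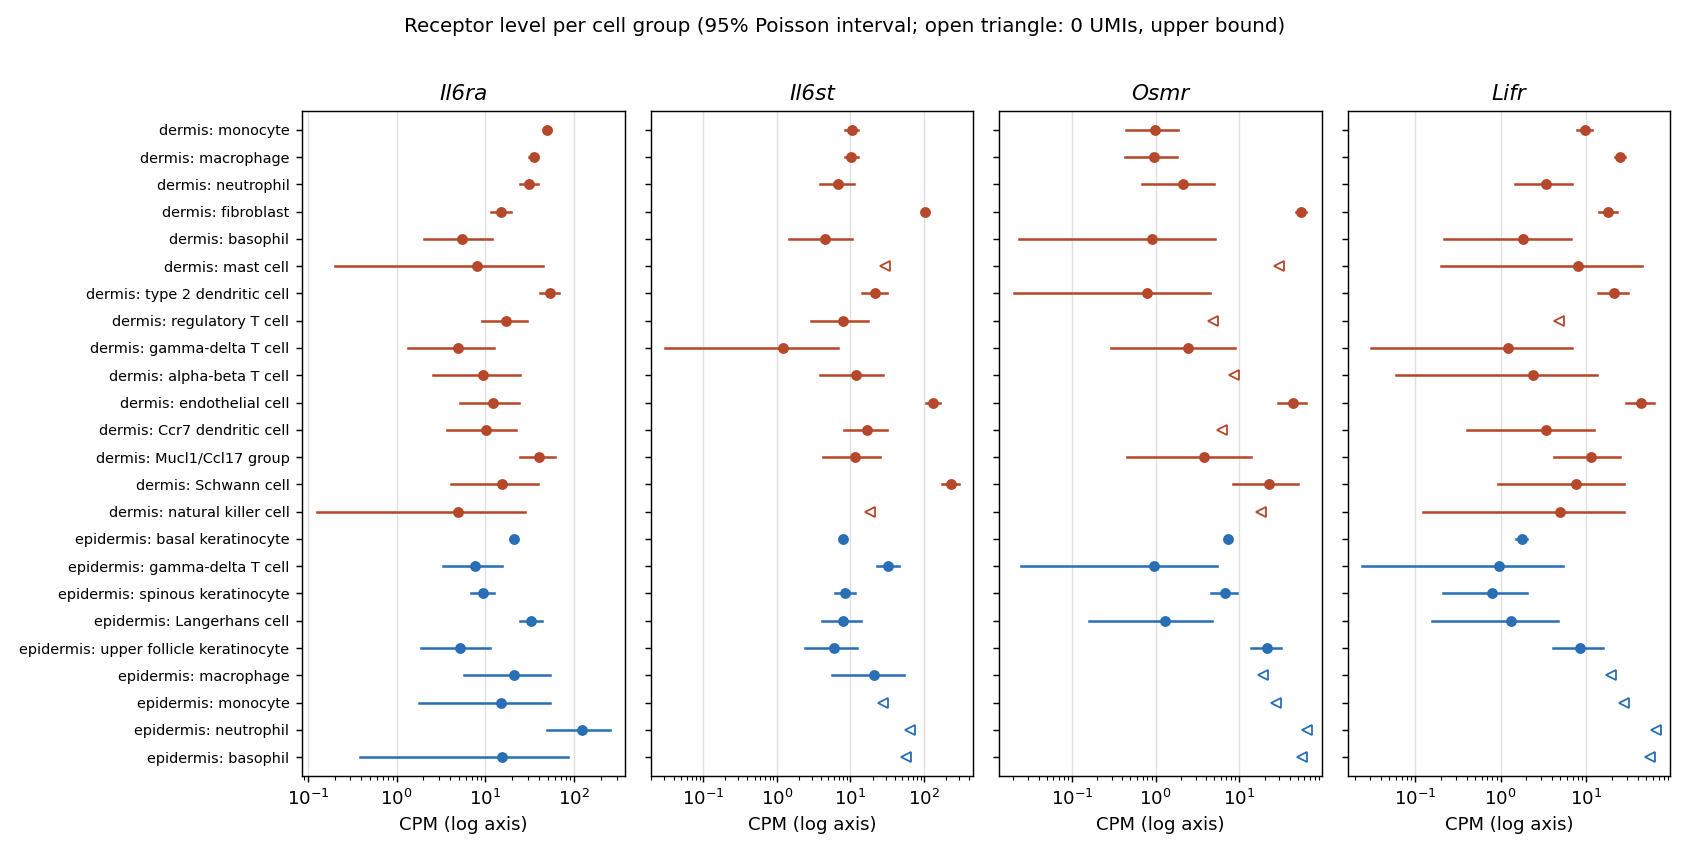
CPM of Il6ra, Il6st, Osmr and Lifr (log axes) in the 24 cell groups, red for dermal and blue for epidermal groups, with exact 95% Poisson intervals and open triangles at the upper bound for 0 UMIs. Il6st and Osmr are highest in Schwann cells, endothelial cells and fibroblasts, with only 6 UMIs of Osmr in Schwann cells. Il6ra is highest in phagocytes and dendritic cells, apart from the 7 UMIs of epidermal neutrophils.

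Chains of 1 receptor were looked for in the same cell. Osmr and Il6st were both counted in 26.2% (21.5 to 31.3) of fibroblasts, 25.6% of endothelial cells, 8.33% of Schwann cells and 5.38% (4.57 to 6.29) of basal keratinocytes, and in 0 of 1045 monocytes, 0 of 905 macrophages and 0 of 242 basophils. Il6ra and Il6st were both counted in 11.4% of basal keratinocytes, 8.84% of fibroblasts, 3.09% of macrophages and 2.87% of monocytes. Lifr and Il6st were both counted in 18.6% of endothelial cells and 12.2% of fibroblasts. These shares rise with depth, and the median basal keratinocyte had 32901 UMIs against 10247 in fibroblasts. After thinning to 1000 UMIs, Osmr was left in 6.21% of fibroblasts and 0.622% of basal keratinocytes, and Il6st in 9.63% and 0.841%.

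Set against all dermal immune cells pooled (3221 cells), fibroblasts had 51.9-fold more Osmr (35.1 to 79.3) and 10.1-fold more Il6st (8.65 to 11.8). Of 8 members past the minimum these 2 were at least 2-fold higher, and Osm (16.6 against 107 CPM) and Il6ra (15.1 against 36.4 CPM) lower, where 21.4% of 12728 genes were higher and 16% lower. Il6 was at 85.1 CPM in fibroblasts against 130 CPM in the immune pool, which contains the basophils. Against the 2979 immune cells other than basophils, a comparison added after the levels were seen, the direction turned, with 26.9 CPM in the pool and a ratio of 3.17 (2.77 to 3.61). Then 3 members were higher, Il6 among them, and 2 lower, against 21.4% and 15.6% of 12654 genes. The gene lists that follow were set against the whole pool of 3221 cells, basophils included. Of the other family receptors with enough UMIs, Cntfr (87.6 against 2.55 CPM) and Il11ra1 (476 against 18.5 CPM), the IL-11 binding chain, were higher. Il27ra was lower. Among 14 STAT3 target genes 5 were higher and 2 lower, with the protease inhibitor gene Timp1 at 2774 against 89.5 CPM and the acute phase gene Saa3 at 25015 against 1423 CPM. Their median log2 ratio was 0.05 against 0.10 over all genes. The JAK-STAT list had 1 of 11 genes higher and 3 lower, the phosphatase gene Ptpn6 at 35.1 against 178 CPM, and Stat3 was at 139 CPM in fibroblasts. Of the immediate early genes 1 of 15 was at least 2-fold lower in fibroblasts and none higher. Without the basophils in the pool 1 was lower and 1 higher.

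The study marks 1 papillary fibroblast cluster by Coch and Tnc together. Here fibroblasts with and without a Coch UMI were compared, a split that does not define that cluster. Coch and Tnc were both among the leading genes of the whole dermal fibroblast group. The 2 sides were not matched for depth, and the part of free Coch RNA in the split was not tested. Between 180 Coch+ and 148 Coch- fibroblasts, 0 of 8 members were past 2-fold in either direction, against 2.72% of 9256 genes higher and 2.26% lower. Il6 was at 95.6 against 70.1 CPM, a ratio of 1.36 (1.08 to 1.72). Its interval does not cover the spread between cells. Over all 328 fibroblasts the median and upper quartile of Il6 were 0 UMIs, and 1 cell had 51. Il6st was at 90.4 against 119 CPM, a ratio of 0.761 (0.623 to 0.929). For Osmr (0.826, 0.627 to 1.09) and Socs3 (1.03, 0.872 to 1.21) the interval included 1.

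Socs3, the inhibitor that the pathway induces, was found in all 24 groups. It was at 304 CPM (241 to 378) in Schwann cells and 291 (270 to 314) in neutrophils, which overlapped, then at 235 (225 to 245) in monocytes and 228 (193 to 267) in endothelial cells. Fibroblasts had 152 CPM, macrophages 115, dermal basophils 101 and basal keratinocytes 56.0 (54.5 to 57.6). Epidermal gamma-delta T cells, Langerhans cells and spinous keratinocytes had 28.9, 23.0 and 23.2 CPM. By unthinned shares 68.0% of monocytes and 66.6% of basal keratinocytes carried Socs3. Thinned to 1000 UMIs, the shares were 20.6% (18.1 to 23.1) and 5.70% (4.86 to 6.64), and 25.9% in neutrophils and 9.94% in fibroblasts. Without thinning, 65.2% of the fibroblasts with Osmr also carried Socs3, as did 51.5% of all fibroblasts, and 26.2% of Osm-positive basophils did. Over all dermal basophils the median cell had 0 Socs3 UMIs and the upper quartile was 1. These cells were not matched for depth.

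Neutrophils, compared with 2731 other dermal immune cells, basophils included, had 1.84-fold more Socs3 (1.69 to 1.99). Osm was at 0.922 times the level of that pool (0.803 to 1.05). Il6 (13.7 against 141 CPM), Lif and Lifr were at least 2-fold lower, and Osmr, with 5 UMIs in neutrophils, was the 1 member higher, with an interval of the ratio from 0.667 to 5.98. Of 11914 genes 9.06% were higher and 38.9% lower. Without the basophils, a comparison added after the levels were seen, Osm was at 99.5 against 59.4 CPM, a ratio of 1.67 (1.45 to 1.92), and Il6 at 13.7 against 28.2 CPM, a ratio of 0.485 (0.329 to 0.692). Socs3 then had a ratio of 1.81 (1.66 to 1.96). Again 1 member was higher and 3 were lower, against 9.3% and 39.1% of 11806 genes. Against the pool with basophils, 6 of 14 STAT3 target genes were higher and 1 lower. Their median log2 ratio was 0.97 against -0.70 over all genes. The list was led by Lcn2, an iron-binding antimicrobial gene, at 3341 against 127 CPM. Of the 15 immediate early genes 5 were also higher and 1 lower against that pool, and 6 were higher and 0 lower without the basophils. Their part in the Socs3 level was not tested.

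In the epidermis, 211 spinous and granular keratinocytes, only 1 of them granular, were compared with 2769 basal ones. They had less Socs3, at 23.6 against 56.0 CPM, a ratio of 0.420 (0.348 to 0.504). Il6ra was at 9.42 against 20.8 CPM, a ratio of 0.454 (0.333 to 0.604). Osmr (0.906, 0.622 to 1.28) and Il6st (1.05, 0.756 to 1.43) had intervals that included 1. Of 9 members 3 were at least 2-fold lower, Lifr with 4 UMIs the third, and 1 was higher, Il11 with 3 UMIs, against 14.9% lower and 6.86% higher of 12870 genes. The intervals of Lifr (0.120 to 1.16) and Il11 (0.454 to 7.82) included 1. Of the 11 JAK-STAT genes none was past 2-fold, with Stat3 at 82.6 against 61.8 CPM. Of 14 genes known as STAT3 targets 2 were lower and none higher, with a median log2 ratio of -0.15 against -0.25 over all genes. Cebpd, a transcription factor gene and 1 of those 2, was at 28.3 against 64.3 CPM. Of the 15 immediate early genes 1 was lower and none higher.

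Gamma-delta T cells, present in both libraries, differed between them. In 407 epidermal against 71 dermal cells, Il6st was at 32.7 against 1.22 CPM (34 UMIs against 1, a ratio of 26.9 with an interval from 4.52 to 1094). Socs3 was lower, at 28.9 against 118 CPM, and Osm at 5.78 against 42.6 CPM. Of 3 members past the minimum 1 was thus higher and 2 were lower, where 29.5% of 7017 genes were higher and 6.7% lower. The median log2 ratio over all genes was 0.50. Clcf1, another family ligand, was at 44.3 CPM in the epidermal and 6.08 CPM in the dermal cells. The median cell had 2390 UMIs in the epidermal and 10005 in the dermal group, and 10 of 15 immediate early genes were at least 2-fold lower in the epidermal cells, Hspa1a at 289 against 6968 CPM. Their part was not tested, and skin layer, library and T cell subset cannot be told apart.

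Across the 24 groups, the genes whose log2 levels were most like those of 8 members were listed among 12244 genes with marker genes left out, and Il11 was not included for its 47 UMIs. These values describe 24 groups from 2 libraries that share depth and free RNA, and they carry no p. For Il6 they were Hgf (Pearson r 0.86, Spearman rho 0.77), Osbpl9 (r 0.80) and Slco2b1 (r 0.80), and for Osm they were Lilr4b (r 0.93, rho 0.85), Ccl6 (r 0.92) and Ccl3 (r 0.91). For Lif the list was led by Fcer1a, the IgE receptor chain of basophils and mast cells (r 0.81, rho 0.58). Il6ra was most like Cux1 (r 0.81), Il6st like Spop (r 0.90), Osmr like Arhgap42 (r 0.94, rho 0.91), Lifr like Igfbp4 (r 0.81) and Socs3 like Gm9733 (r 0.86, rho 0.90).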

How the data were processed

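Single-cell 3′ libraries (10x Genomics) of 1 dermal and 1 epidermal sample were counted by the authors with Cell Ranger (3.0.2 in the file headers, genome build mm10 per the submitters' notes), and the deposited values are raw UMI counts per gene and barcode. Members and gene lists were chosen with earlier results of these data known. Cells were gated by the mean scaled level of 25 marker lists: at least 3 markers, a score of at least 0.05, and 1.5 times the best other class. The thresholds were set from marker levels. Ungated were 1112 dermal and 352 epidermal cells, of which 134 and 59 lay near the threshold. UMIs were summed per group (Python 3.11.15, scipy 1.17.1). CPM, shares and ratios carry exact Poisson, Clopper-Pearson and conditional 95% intervals for counting error. Calls needed 20 UMIs over both groups, a pseudocount of 0.5 UMI and a 2-fold difference. This step was also run on simulated Poisson counts with known folds. Such counts lack the extra spread between cells, so that run says nothing about it. Named genes were the 9 members, up to 4 list genes with the largest ratio per comparison, and the 3 genes most like each member. Doublets were left in, and their removal was tried. Keratinocytes could not be compared between libraries, since the dermis held 1. Both basophil comparisons and those with an immune pool without basophils were added after seeing the data. Total UMIs were 41258087 in the dermis and 108768396 in the epidermis. Gene positions came from GENCODE M21, promoter sequences from RefSeq.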

Additional observations from a re-analysis of the deposited data

How the results depend on the processing

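No paired analysis was possible because no group has more than 1 library. The main values were the level of each member in its highest group with enough cells and UMIs, and the basophil shares of ligand UMIs. The alternatives were the stricter cell filters of the study, doublet removal, clusters in place of the gate and a margin of 3. Omission of the richest cell was also tried, and for levels the mean of per-cell CPM. Of these main values under the alternatives, 57 stayed within their interval and 12 moved. A reversal was not defined for them. Il6 in dermal basophils was 2500 CPM by clusters, 2833 with a margin of 3, 2450 without the richest cell and 2488 as a per-cell mean. Their share of dermal Il6 UMIs was 71.3% by clusters, 51.0% with a margin of 3, which kept 168 basophils, and 65.4% without the richest cell. With a margin of 3, Osm was 1276 CPM and 27.2% of its UMIs, and Lif 187 CPM and 36.1%; by clusters the Osm share was 38.7%. Of the other values, 122 held, 50 moved and 3 reversed. Those 3 turned when basophils, which hold most of the Il6 UMIs, were left out of the immune pool, which was chosen after seeing the data. Ratios became 3.17 (2.77 to 3.61) for Il6 and 1.07 (0.654 to 1.66) for Lif in fibroblasts, and 1.67 (1.45 to 1.92) for Osm in neutrophils. The Lif interval included 1, as did that of Osm with the basophils in the pool (0.803 to 1.05). With a minimum of 50 UMIs no member was higher in neutrophils, in spinous and granular keratinocytes or in epidermal gamma-delta T cells. With a minimum of 5 UMIs the last had 4 members lower, among them Il6 (0 against 9 UMIs) and Lif (0 against 7). The shares of all genes were not counted at these minimums, so these counts have no background beside them. By Spearman correlation the order of the most alike genes changed. Limits are 1 library per tissue, low counts in groups under 50 cells, and a gate that left 23.4% of dermal cells unnamed.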
